A study of Mus musculus with 6 samples.

Results

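Hmga2+ tumor cells were the keratin-positive cells of subcutaneous 6694c2vTRP1 pancreatic tumors that carried transcripts of Hmga2 and none of the trefoil gene Tff1. They were chosen by their own counts of UMIs, each of which tags 1 captured transcript molecule. A cell entered when it had at least 1000 detected genes, at most 10% mitochondrial UMIs and 1 hashtag antibody with at least 2/3 of its hashtag UMIs. It also needed at least 5 UMIs of Krt8 and Krt18 together, 0 UMIs of Ptprc (which encodes CD45) and at most 2 UMIs of C1qa, C1qb and C1qc together, and cells that met these terms are called tumor cells here. Of the tumor cells, those with at least 2 UMIs of Hmga2 and 0 of Tff1 were the members. There were 7692 members among 13102 tumor cells (58.7%), among 60351 cells with 1 hashtag and among 130444 deposited barcodes. The PBS library held 1741 of them, the mono-IL10 library 2924 and the IL10/2-Trikine library 3027.

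The tumors came from male and female C57BL/6 mice that carried 6694c2vTRP1 cells, a line of the KPC model of pancreatic ductal adenocarcinoma. The mice had received intraperitoneal PBS, mono-IL10 at 26 μg per mouse (an engineered monomeric IL-10) or IL10/2-Trikine at 30.6 μg per mouse (an engineered cytokine built to bind the beta chain of the IL-2 receptor as well). The 2 doses began on day 8 and tumors were taken on day 14. Each group had 5 mice, told apart by hashtag antibodies, and the cells of a group were pooled in 1 library, so treatment and library cannot be told apart. The libraries were made from cells isolated with CD45 beads and are labelled as tumor-infiltrating lymphocytes, so the tumor cells described here are those that came through that isolation, and the age and sex of each mouse were not given in the sources used here.

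HMGA2 is an architectural chromatin protein that binds the minor groove of AT-rich DNA. The gene is active in the embryo, is held down by let-7 microRNAs in differentiated tissue, is silent in most adult tissues and is expressed again in many carcinomas. In pancreatic cancer it is often read together with loss of the gland-like epithelial state, whereas trefoil peptides such as TFF1 and TFF2 belong to mucus-secreting gastric-type cells. The other genes used to label these cells were Sprr1a, a cornified envelope precursor of stressed and stratified epithelium, Ankrd1, a nuclear ankyrin repeat protein known as a target of YAP and TEAD, and F3, tissue factor, which starts the extrinsic coagulation cascade.

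The promoter sequences of these 4 genes are shown because the genes were grouped under 1 label. Each is the 250 bases before the start of the gene in RefSeq, 5′ to 3′ on the strand of the gene, in build GRCm38.p6 (the reads were aligned to GRCm39, so these positions are not those of the count files). All 4 genes were found in the sequence table. The windows lie at chr10:120476470-120476719 (minus strand) for Hmga2, chr3:92485882-92486131 (minus) for Sprr1a, chr19:36119845-36120094 (minus) for Ankrd1 and chr3:121723287-121723536 (plus) for F3. Capitals mark matches to TGANTCA, the letters bound by AP-1, or to CATTCC and its reverse complement GGAATG, the letters bound by TEAD factors, both searched on both strands, and no match overlapped another.
Hmga2: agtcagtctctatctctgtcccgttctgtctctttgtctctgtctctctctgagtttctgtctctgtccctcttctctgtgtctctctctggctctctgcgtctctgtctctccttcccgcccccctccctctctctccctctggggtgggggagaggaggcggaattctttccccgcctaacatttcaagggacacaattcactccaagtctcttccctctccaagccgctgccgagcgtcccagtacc
Sprr1a: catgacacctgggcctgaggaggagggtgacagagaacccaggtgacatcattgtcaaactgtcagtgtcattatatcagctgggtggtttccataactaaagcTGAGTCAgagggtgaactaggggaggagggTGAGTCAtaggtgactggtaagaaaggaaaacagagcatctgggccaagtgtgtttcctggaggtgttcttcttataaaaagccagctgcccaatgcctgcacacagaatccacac
Ankrd1: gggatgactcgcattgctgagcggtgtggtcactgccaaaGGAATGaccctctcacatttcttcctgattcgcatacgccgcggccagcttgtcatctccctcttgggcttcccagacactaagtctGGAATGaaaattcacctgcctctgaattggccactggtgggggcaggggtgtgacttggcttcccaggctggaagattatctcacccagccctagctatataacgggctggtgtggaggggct
F3: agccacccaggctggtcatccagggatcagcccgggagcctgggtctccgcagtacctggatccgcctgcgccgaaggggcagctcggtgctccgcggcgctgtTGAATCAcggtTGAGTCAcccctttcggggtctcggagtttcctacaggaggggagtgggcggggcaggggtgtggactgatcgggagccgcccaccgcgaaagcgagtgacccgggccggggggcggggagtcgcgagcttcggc
Sprr1a had 2 AP-1 matches, which began 146 and 116 bases before the start, and F3 had 2, at 146 and 135 bases. Ankrd1 had 2 TEAD matches, at 210 and 123 bases. These letters were not found in the Hmga2 window. Of 32851 promoter windows of the same length, 6.75% held an AP-1 match and 0.338% held at least 2, while 12.6% held a TEAD match and 1.02% at least 2. A match describes the letters and does not show binding.

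The libraries differed in depth, and this touches every comparison of treatments below. Members of the PBS library had a median of 32905 UMIs per cell, those of mono-IL10 38245 and those of IL10/2-Trikine 12725, with median mitochondrial shares of 2.02%, 2.13% and 2.07%. Hmga2 itself had a median of 7, 10 and 4 UMIs per member in that order. A cell with few UMIs is less likely to reach 2 UMIs of Hmga2, so shares of members are given as counted and again with each cell thinned at random to 6010 UMIs. Thinning left out 117 PBS, 72 mono-IL10 and 1120 IL10/2-Trikine tumor cells that were shallower than this. The hashtag rule removed barcodes with an even mix of mice, but doublets with an uneven mix could pass it, and doublets within a mouse were not removed. The top hashtag held a median of 77.9%, 81.5% and 80.2% of the hashtag UMIs of members in PBS, mono-IL10 and IL10/2-Trikine. Among the members, 4 barcodes were shared between PBS and mono-IL10, 3 between PBS and IL10/2-Trikine and 1 between mono-IL10 and IL10/2-Trikine.

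Krt19 and Tyrp1, which the rule did not use, were read as a check of the label. The 9 markers of tumor epithelial cells, which include the gate genes Krt8 and Krt18, summed to between 3813 and 6217 CPM (UMIs of a gene scaled to equal library totals) over the 15 mice, against 27.4 to 59.0 CPM in the immune cells of the same mice, a gap that the rule itself largely fixed. These immune cells were chosen to hold Ptprc UMIs and no Krt8 or Krt18 UMIs. Low levels of other tumor genes in them, such as Krt19 and Tyrp1, were therefore partly set by that choice. Krt19, a ductal keratin outside the rule, was detected in 93.8% ± 2.10 of the PBS members after thinning (SD, n = 5 mice), 94.1% ± 2.10 of the mono-IL10 members and 92.7% ± 1.92 of the IL10/2-Trikine members, against 1.54% to 2.58% of immune cells. Tyrp1, the melanosomal protein after which the line is named, was detected in 11.3% to 16.4% of thinned members as group means, against 0.0502% to 0.132% of immune cells. The 4 melanocyte lineage markers together stayed between 0 and 0.346 CPM in every mouse. Epcam was low, with 4.05%, 4.10% and 4.73% of thinned members in PBS, mono-IL10 and IL10/2-Trikine. It was detected in 9.50%, 7.49% and 9.65% of the tumor cells with 0 Hmga2 UMIs after thinning. Krt5, a basal keratin, had 0 CPM in every mouse.

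RNA of other cell types in the members differed between lists. The 8 macrophage and monocyte markers summed to 42.8 to 82.0 CPM in PBS members, 31.5 to 49.3 in mono-IL10 and 43.0 to 127 in IL10/2-Trikine, which as medians were 0.295%, 0.196% and 0.432% of the sums in immune cells. The 4 neutrophil markers summed to 5.35 to 37.4 CPM in PBS, 18.2 to 43.7 in mono-IL10 and 44.9 to 146 in IL10/2-Trikine, so that every IL10/2-Trikine mouse lay above every mouse of the other two groups. The 7 T and NK cell markers lay between 5.58 and 12.8 CPM, with Ncr1 at 0 in both treated groups, and the 3 B cell markers between 0 and 0.846 CPM, with Ms4a1 at 0 in mono-IL10. The 4 dendritic cell markers, which include Cd74 and class II genes, reached 508 to 1498 CPM, against 4918 to 14182 CPM in immune cells. The 7 fibroblast markers reached 35.7 to 434 CPM and the 4 endothelial markers 9.03 to 34.6 CPM. The 3 mast cell markers summed to 13.2 to 49.1 CPM, which as medians were 70.8%, 27.7% and 59.4% of the sums in immune cells, and the 2 erythroid markers to 0.228 to 54.3 CPM, the highest in a mono-IL10 mouse. The part of this RNA in the results below was not tested, but the values without any cell that held a UMI of 7 immune genes are given with the alternatives.

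The label was checked against its own genes. After thinning, Sprr1a was detected in 51.6% ± 6.97 of PBS members, 67.9% ± 8.39 of mono-IL10 members and 51.2% ± 3.54 of IL10/2-Trikine members, against 0.569% to 1.12% of immune cells at the same depth. Ankrd1 was detected in 51.8%, 54.7% and 49.1%, against 0.218% to 0.529% of immune cells, and F3 in 69.4%, 71.0% and 63.7%, against 2.74% to 3.83%. The tumor cells with 0 Hmga2 UMIs after thinning, some of which held Hmga2 before it, carried these genes as well. Sprr1a was detected in 45.7%, 55.6% and 48.6% of them in the same order of groups, Ankrd1 in 42.6%, 42.7% and 38.6%, and F3 in 61.5%, 61.7% and 53.2%. The genes other than Hmga2 therefore marked tumor cells in general more than they marked these cells, and the members are called here by the rule that chose them.

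**Figure D1:**
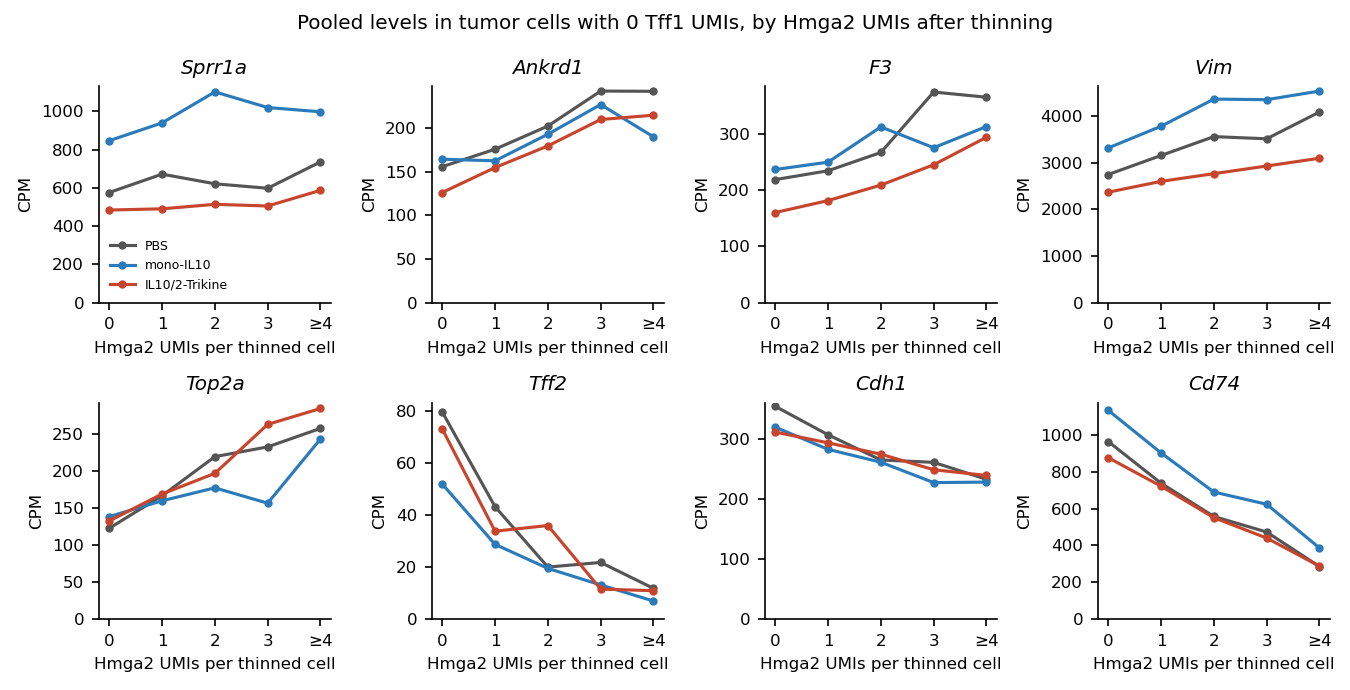
Levels in CPM of selected genes in tumor cells with 0 Tff1 UMIs, thinned to 6010 UMIs per cell and split by their Hmga2 UMIs (0, 1, 2, 3, 4 or more), with 1 line for each of the 3 libraries. The cells of all mice of a library were pooled. Vim, Top2a and F3 were higher and Cd74, Cdh1 and Tff2 lower at 4 or more Hmga2 UMIs than at 0 in all 3 libraries.

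The threshold cut through a continuous range of Hmga2 counts. Among tumor cells with 0 Tff1 UMIs, 1953 had 1 Hmga2 UMI and lay just outside, with a median of 11498 UMIs per cell, and 1360 had 2 and lay just inside, with a median of 14140.5. There were 4038 cells with at least 6 Hmga2 UMIs, which is 30.8% of all tumor cells. The trefoil rule removed 378 cells with at least 2 Hmga2 UMIs. Hmga2 and Tff1 did not exclude each other, because 254 of the 456 tumor cells with at least 2 Tff1 UMIs also had at least 2 UMIs of Hmga2.

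Levels at the lowest and highest Hmga2 counts are given at fixed depth, as a description because the same cells and counts define the bins, and the bins between were not in order for every gene (in mono-IL10, Top2a had 177 CPM at 2 Hmga2 UMIs and 157 at 3). They were pooled over the mice of a library, so the spread between mice is not shown. Mouse 5 gave 851 of the 1495 thinned mono-IL10 members, and mouse 2 gave 947 of the 1832 thinned IL10/2-Trikine members. In PBS, Cd74 (the class II invariant chain) went from 964 CPM at 0 Hmga2 UMIs to 285 at 4 or more, in mono-IL10 from 1133 to 386 and in IL10/2-Trikine from 876 to 287. Tff2, the second gastric trefoil peptide, went from 79.7 to 11.8, from 52.0 to 6.93 and from 73.1 to 10.9 CPM. E-cadherin (Cdh1) went from 355 to 233, from 320.2 to 229 and from 312 to 239.6 CPM. Vimentin (Vim), an intermediate filament of mesenchymal cells, went the other way, from 2744 to 4085, from 3314 to 4533 and from 2366 to 3094 CPM. Top2a, the topoisomerase of dividing cells, went from 123 to 258, from 139 to 243 and from 133 to 285 CPM. Of the label genes, F3 went from 219 to 365, from 237 to 313 and from 160.1 to 294 CPM, Ankrd1 from 156 to 242, from 164 to 190.1 and from 126 to 215 CPM, and Sprr1a from 576 to 736, from 847 to 998 and from 484 to 587 CPM.

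Beside the tumor cells with 0 Hmga2 UMIs of the same mice, the members had higher levels of genes such as Csf2, Inhba and Hmga1 and lower levels of genes such as Tff2 and Dmbt1. This comparison used 14 mice, since mouse 3 of mono-IL10 had too few Hmga2-negative cells, and it is a description without a test because these cells were divided by their own counts. The Hmga2-negative cells were also shallower, with medians of 15373.5, 19569 and 8224 UMIs per cell in the PBS, mono-IL10 and IL10/2-Trikine libraries. Of 6182 genes, 65 (1.05%) had a mean log2 ratio of at least 1 with the same sign in every mouse, 31 higher and 34 lower, while the median log2 ratio of all genes was 0.05. With cells thinned to equal depth 52 genes met these terms and 33 of the 65 were among them, and the 56 of the 65 genes that had a value there all had the same sign. Of the genes named below, Ube2c (0.82), Prkg2 (0.95), Tnnt2 (0.998) and Hmga1 (0.9996) were then under 1. Among the higher genes were Csf2 (GM-CSF), at 103 CPM in the members and 33.5 CPM in the others with a log2 ratio of 1.53 ± 0.55 (SD, n = 14), and the chemokine Cxcl1, at 555 and 259 CPM with 1.12 ± 0.54. Inhba (activin A) had a log2 ratio of 1.45 ± 0.86, Lif 1.12 ± 0.56 and Igfbp3, an IGF-binding protein, 1.57 ± 0.83. Hmga1, the paralog of Hmga2, stood at 98.2 and 40.6 CPM with a log2 ratio of 1.17 ± 0.19. Prl2c2 (proliferin) had the largest ratio as counted, apart from Hmga2 itself, among the genes named by the rule, 2.47 ± 0.94. With cells thinned Prl2c2 had 1.73 and Inhba 1.74. Tnfaip6, Prkg2, Dpysl3, Tnnt2 and the ubiquitin-conjugating enzyme of mitosis, Ube2c, had mean log2 ratios of 1.49, 1.24, 1.22, 1.19 and 1.24.

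Among the lower genes, Tff2 stood at 18.2 CPM in the members and 228 CPM in the others, a log2 ratio of -3.37 ± 0.75, but the others included cells with Tff1. Against Hmga2-negative cells that also lacked Tff1, Tff2 stood at 82.4 CPM with a log2 ratio of -1.76 ± 1.35, and 2 of 14 mice had the opposite sign. The mucosal scavenger protein Dmbt1 had a log2 ratio of -2.23 against all Hmga2-negative cells and of -2.14 ± 0.79 against those without Tff1, lower in 14 of 14 mice both ways. Lypd8l had -1.94 ± 0.47, Phgr1 -1.87, carbonic anhydrase Car2 -1.72, transthyretin Ttr -1.67, the deacetylase Aadac -1.63 and the thioredoxin inhibitor Txnip -1.42 ± 0.52. Sema4g and Sult1c2 had -1.36 and -1.34. Muc1, the membrane mucin, had -0.97 ± 0.15 and was lower in all 14 mice without reaching 1. The markers of the label stayed under 1, with 0.59 ± 0.36 for Ankrd1, 0.33 ± 0.53 for Sprr1a and 0.33 ± 0.26 for F3, and none of the 3 had the same sign in all 14 mice.

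**Figure D2:**
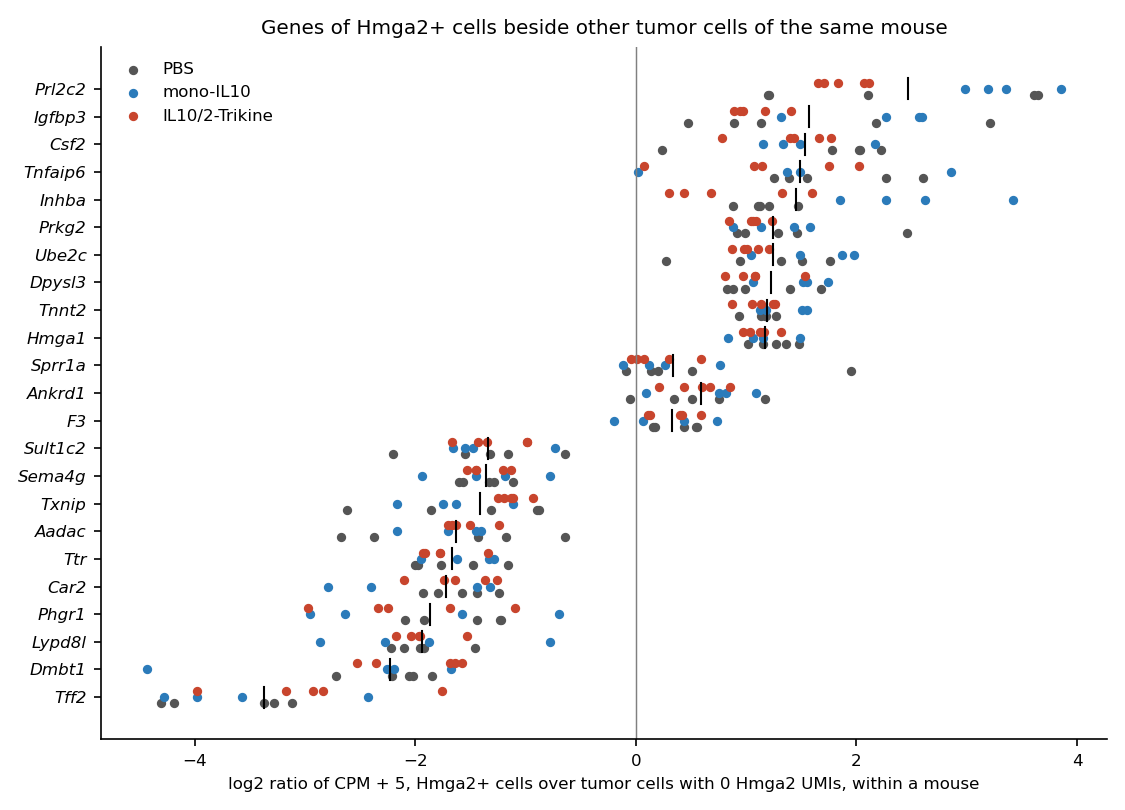
Log2 ratio of members to tumor cells with 0 Hmga2 UMIs for the genes named by the rule, with 1 point for each of 14 mice and a bar for the mean. The points of each called gene lie on one side of 0, and Tff2 and Dmbt1 are the lowest.

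The fixed lists were read against that background of 1.05% for genes that reached 1, while 13.1% of all genes were higher in every mouse and 6.52% lower in every mouse at any size. Of 16 mitosis genes with a value, 14 were higher in every mouse (median log2 ratio 0.81) and 3 of them, Ube2c, Top2a and Tpx2, reached 1. Of 13 DNA replication genes, 7 were higher in every mouse and none reached 1 (median 0.54). After thinning, Top2a was detected in 48.0%, 45.0% and 53.6% of the members of PBS, mono-IL10 and IL10/2-Trikine. It was detected in 30.1%, 31.6% and 32.01% of the cells with 0 Hmga2 UMIs after thinning. Of 19 chemokines, cytokines and growth factors, 4 reached 1, namely Csf2, Inhba, Lif and Cxcl1 (median 0.32). Of 6 epithelial junction genes, 4 were lower in every mouse and none reached -1 (median -0.68). Of 10 trefoil and gastric genes, 3 reached -1, including Tff1, which the rule had used (median -0.65). Of 15 hypoxia genes only Car9, a carbonic anhydrase, reached -1, with -1.06, and of 14 YAP and TEAD targets only Igfbp3 reached 1. Hmga2, which the rule had used, and Hmga1 were the 2 of 4 oncofetal regulators that reached 1, and the others of that list also included Igf2bp2, an RNA-binding protein, at 0.36 ± 0.17 and higher in 14 of 14 mice.

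The members were also set beside the trefoil cells. Beside tumor cells with at least 2 Tff1 UMIs, in the 8 mice with enough of both, 39 of 6036 genes (0.646%) had a mean log2 ratio of at least 1 with the same sign in every mouse, 20 higher and 19 lower. Tff2 stood at 17.0 CPM in the members and 1111 in the trefoil cells, a log2 ratio of -5.70 ± 0.60. Dmbt1 (-1.63), Lypd8l (-1.56), Phgr1 (-1.73), Ttr (-1.27) and Sult1c2 (-1.45), which were also lower beside Hmga2-negative cells, were lower here in 8 of 8 mice. Among the higher genes, thrombospondin 1 (Thbs1) had 1.58, the Wnt antagonist Dkk2 1.52, the chemokines Ccl7 and Cxcl3 1.42 and 1.38, and the protease inhibitor Timp3 1.31. Ccn1, a matricellular YAP target, stood at 771 and 383 CPM with 1.03 ± 0.32. The label gene Sprr1a was lower in the members, at 709.9 CPM against 1137, a log2 ratio of -0.69 ± 0.31 in 8 of 8 mice. The trefoil cells were not a set without Hmga2, since 254 of all 456 had at least 2 UMIs of it. Hmga2 itself stood at 358 CPM in the members and 180 in the trefoil cells (0.97 ± 0.45). The mitosis genes that marked the members against Hmga2-negative cells did not stand apart here, with 0.34 ± 0.56 for Top2a and 0.31 ± 0.41 for Ube2c, and Hmga1 had 0.16 ± 0.33. Csf2 stood at 105 CPM in the members and 152 in the trefoil cells (-0.41 ± 0.64, higher in 2 of 8 mice) and Prl2c2 at 59.0 and 82.7 CPM (-0.43 ± 0.92, higher in 2 of 8 mice). Beside trefoil cells with 0 Hmga2 UMIs, 219 of 5993 genes met the same terms, but only 3 mice had enough of both. Against cells just under the threshold, with 1 Hmga2 UMI, 8 of 6191 genes (0.129%) met the same terms in 13 mice, among them Csf2 at 1.18 ± 0.61, Tnfaip6 at 1.19, Lypd8l at -1.26 ± 0.49, Dmbt1 at -1.24 and Ttr at -1.37.

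The first comparison of treatments asked whether the cytokines changed the share of members among tumor cells. In PBS mice 1 to 5 the share was 53.6%, 60.6%, 77.7%, 64.8% and 72.3%. In the mono-IL10 mice it was 79.0%, 71.6%, 82.6%, 76.0% and 82.6%, and in the IL10/2-Trikine mice 39.9%, 46.8%, 45.7%, 35.2% and 48.1%. The IL10/2-Trikine group (43.1% ± 5.43, SD, n = 5) did not overlap PBS (65.8% ± 9.48) or mono-IL10 (78.4% ± 4.68). By two-sided exact permutation tests over 252 splits, with adjustment over the 3 comparisons, IL10/2-Trikine was lower than PBS by 22.7 percentage points (p = 0.00794, the smallest possible, adjusted p = 0.0119) and lower than mono-IL10 by 35.2 points (p = 0.00794, adjusted p = 0.0119). Mono-IL10 was higher than PBS by 12.6 points, with 3 of 5 mice above every PBS mouse (p = 0.0397, adjusted p = 0.0397 in the exact permutation test).

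These differences did not hold at equal depth. With every cell thinned to 6010 UMIs the PBS mice had a share of 33.5% ± 10.3, the mono-IL10 mice of 36.1% ± 9.38 and the IL10/2-Trikine mice of 30.2% ± 5.85 (SD, n = 5 each). The differences were -3.31 points for IL10/2-Trikine against PBS (exact permutation p = 0.540), 2.60 for mono-IL10 against PBS (exact p = 0.683) and -5.91 for IL10/2-Trikine against mono-IL10 (exact p = 0.262), and the adjusted p was 0.683 for all 3. A change in the share of Hmga2+ cells was therefore not detectable at this depth.

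**Figure D3:**
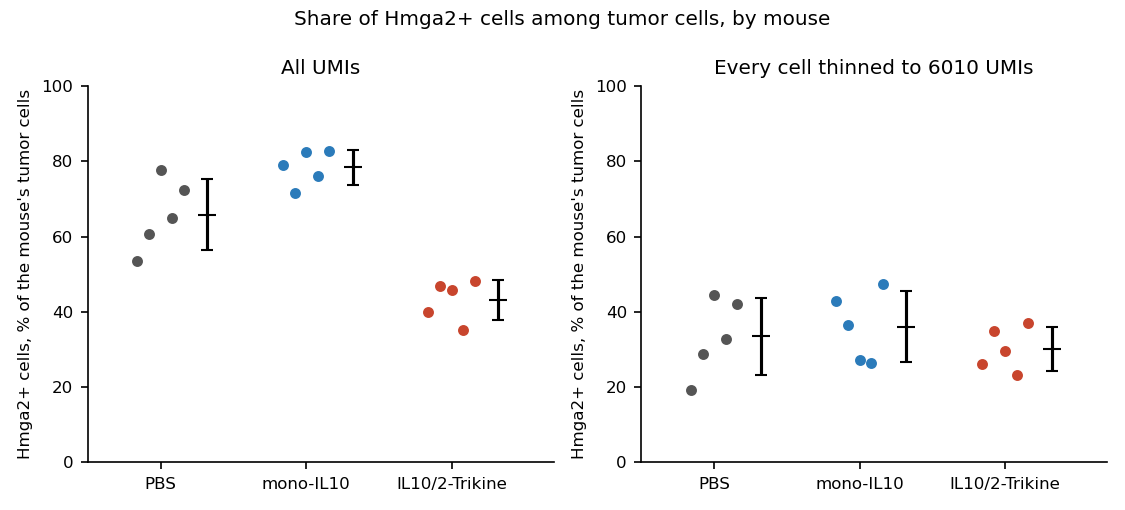
Share of members among tumor cells in percent for each of the 15 mice, as counted and after thinning each cell to 6010 UMIs, with the group mean and SD. As counted the IL10/2-Trikine mice lie below all others, and after thinning the 3 groups overlap.

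The second comparison asked which genes differed within the members. Counts were summed over the members of each mouse and compared with edgeR's quasi-likelihood test over 12616 genes, all 15 mice in 1 fit. The 5 mice of a group came from 1 library, so the p-values measure the spread between mice and do not cover the difference between libraries. For IL10/2-Trikine against PBS, 764 genes (6.06%) were higher and 650 (5.15%) lower at an adjusted p under 0.05, with 39 and 10 of them past a log2 difference of 1. For mono-IL10 against PBS, 110 (0.872%) were higher and 20 (0.159%) lower. For IL10/2-Trikine against mono-IL10, 1018 (8.07%) were higher and 1069 (8.47%) lower. The PBS mice served as the controls of both treated groups. Where a list is given below, the count of its members past the threshold is to be read against these shares, and the medians over all genes were 0.01, -0.00 and 0.01 on the log2 scale.

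**Figure D4:**
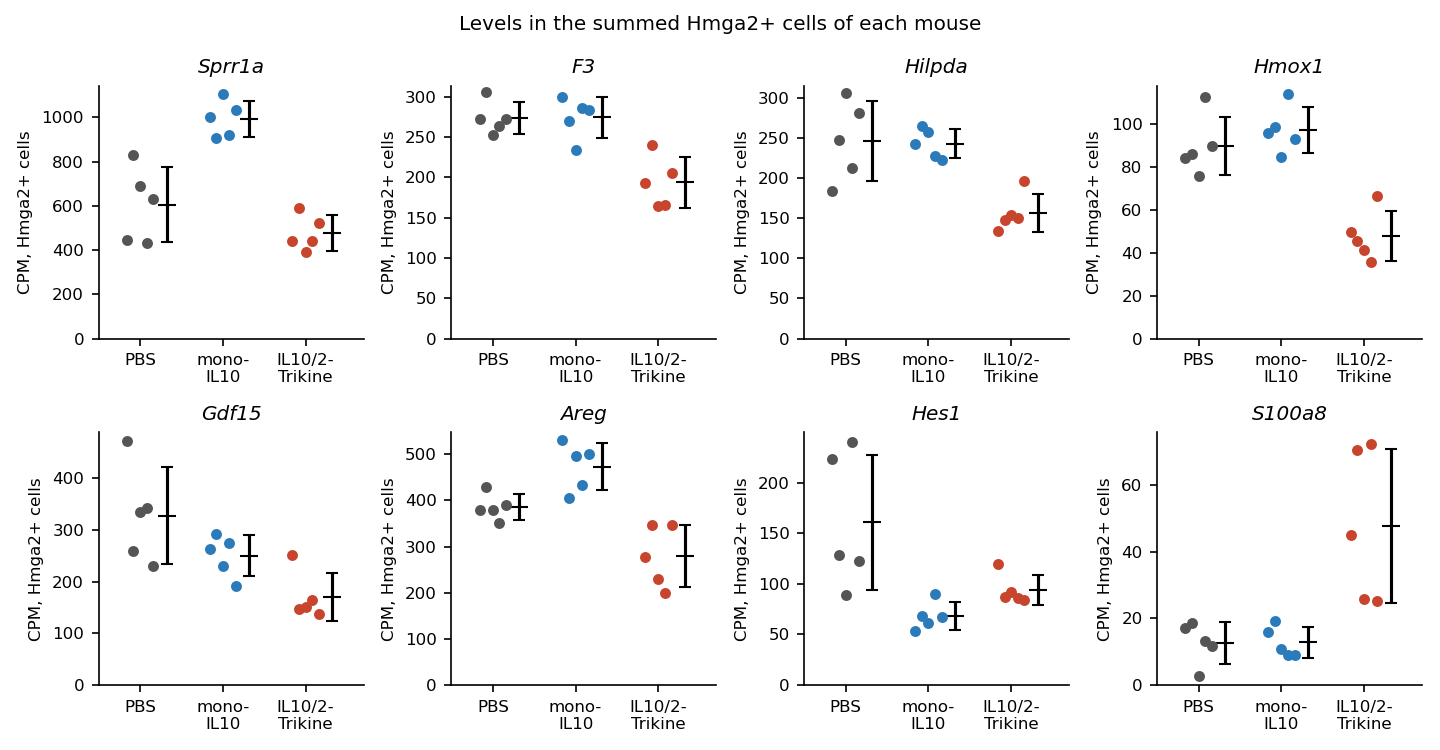
Levels in CPM of selected genes in the members, with 1 point for each of the 15 mice and a bar for the group mean ± SD. Hmox1 and F3 are lower in all 5 IL10/2-Trikine mice than in every PBS mouse, Sprr1a is higher in all 5 mono-IL10 mice than in every PBS mouse, and S100a8 is higher in the 5 IL10/2-Trikine mice than in all other mice.

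Gdf15 and Hmox1 were among the named genes that were lower with IL10/2-Trikine. Gdf15, a stress-induced TGF-beta family hormone, stood at 471, 259, 336, 343 and 231 CPM in PBS mice 1 to 5, at 262, 292, 229.6, 274 and 192 in mono-IL10 and at 251, 147, 151, 165 and 138 in IL10/2-Trikine. It was lower in IL10/2-Trikine by a log2 difference of -0.89 ± 0.19 (SE, edgeR adjusted p = 0.00448), and 4 of 5 IL10/2-Trikine mice lay below every PBS mouse. In the members without immune UMIs, which left 2 PBS and 4 IL10/2-Trikine mice, the difference turned to 0.22 (edgeR adjusted p = 0.935). Against mono-IL10 its call (-0.59) was lost with DESeq2 (adjusted p = 0.0511). In immune cells Gdf15 averaged 35.9 CPM in IL10/2-Trikine and 129.6 in PBS, so it was lower there too. Heme oxygenase 1 (Hmox1) stood at 84.3, 86.2, 75.9, 112 and 89.97 CPM in PBS, at 95.9, 98.5, 84.8, 114 and 93.1 in mono-IL10 and at 49.7, 45.5, 41.2, 35.6 and 66.3 in IL10/2-Trikine. All 5 IL10/2-Trikine mice lay below all mice of both other groups, with a log2 difference of -0.82 ± 0.13 against PBS (edgeR adjusted p = 0.000411) and -1.02 ± 0.12 against mono-IL10. The autophagy receptor Sqstm1, a target of the same oxidative stress pathway, had -0.62 ± 0.10 against PBS and the polyamine enzyme Sat1 -0.70 ± 0.08, each lower in 5 of 5 mice. The lipid droplet coat protein Plin2 had -0.64 ± 0.11, the ephrin Efna1 -0.79 ± 0.11, the tubulin-binding Tppp3 -0.69 ± 0.16 and placental growth factor Pgf -0.63 ± 0.18. Immune cells held more Hmox1, Sat1, Plin2 and Pgf than the members, and less Sqstm1, Efna1 and Tppp3. In immune cells of IL10/2-Trikine and PBS, Hmox1 averaged 218 and 228 CPM and Sat1 387 and 517. Plin2 averaged 439 and 457 CPM there and Pgf 83.1 and 51.0. The heat shock cochaperone Dnajb1 had -0.76 ± 0.21, but only 1 of 5 IL10/2-Trikine mice lay below every PBS mouse. Of 16 integrated stress response genes, 4 were lower against PBS, Gdf15, Ddit4 (-0.54), Atf3 (-0.38) and Atf5 (-0.34), and 0 higher (median -0.25).

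Some hypoxia and coagulation genes were lower with IL10/2-Trikine, and most of the hypoxia genes did not pass against PBS. Of 17 hypoxia genes, 5 were lower with IL10/2-Trikine than with PBS and 0 higher (median -0.17), and 10 were lower against mono-IL10 (median -0.35). Hilpda, a lipid droplet inhibitor of lipolysis, stood at 184, 247, 306, 212 and 281 CPM in PBS and at 134, 148, 153, 150.1 and 197 in IL10/2-Trikine, a log2 difference of -0.61 ± 0.12 (edgeR adjusted p = 0.00308). The glucose transporter Slc2a1 had -0.43 ± 0.09, the glycolytic regulator Pfkfb3 -0.58 ± 0.13 and Ndrg1 -0.33 ± 0.10. Adm, adrenomedullin, had -1.13 but stood at only 0.979 CPM against 2.51. Of 12 coagulation and plasminogen genes, 6 were lower against PBS (median -0.24) and 8 against mono-IL10 (median -0.42), with 0 higher in either. The label gene F3 stood at 272, 306, 253, 264 and 272 CPM in PBS, at 300.2, 270.2, 234, 286 and 284 in mono-IL10 and at 193, 240.2, 164, 165 and 206 in IL10/2-Trikine. All 5 IL10/2-Trikine mice lay below all 5 PBS mice, with -0.44 ± 0.09 (edgeR adjusted p = 0.00323). The urokinase receptor Plaur had -0.36 ± 0.08, tissue plasminogen activator Plat -0.22 ± 0.06 and annexin A2 (Anxa2) -0.21 ± 0.06.

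Areg, Hbegf, Egfr, Krt19 and Krt7 passed as well, of which only Hbegf passed at equal depth. Of 8 EGF family ligands and receptors, 3 were lower against PBS and 0 higher (median -0.17). Amphiregulin (Areg) stood at 379, 429.7, 380.1, 351 and 389.8 CPM in PBS, at 531, 406, 496, 432 and 501 in mono-IL10 and at 278, 348, 230.0, 199.8 and 347 in IL10/2-Trikine. It was lower in IL10/2-Trikine by -0.40 ± 0.12 against PBS (edgeR adjusted p = 0.0394) and by -0.77 ± 0.12 against mono-IL10, with no overlap in either. Hbegf had -0.30 ± 0.06 and Egfr -0.28 ± 0.07. Among 17 ERK target genes the direction was mixed, with 2 higher and 4 lower. The feedback inhibitors Spry2 and Spry4 had 0.54 ± 0.08 and 0.34 ± 0.09, and the phosphatase Dusp4, Fosl1, Phlda1 and Dusp5 had -0.57, -0.38, -0.34 and -0.25. Of 8 tumor epithelial markers, Krt7 (-0.44), Krt19 (-0.42) and the low Cldn4 (-1.33) were lower and lie outside the gate. Krt18 (-0.54) and Krt8 (-0.28) passed too, but they are gate genes that chose the cells, so they are not read as a result. Of 18 mesenchymal genes, 3 were lower, among them Vim (-0.28 ± 0.06) and Sparc (-0.28), and 1 was higher, N-cadherin (Cdh2, 0.36 ± 0.08).

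Among called genes with a mean of at least 20 CPM, those higher with IL10/2-Trikine than with PBS were led by neutrophil transcripts. The neutrophil alarmin S100a8 stood at 17.0, 18.6, 2.62, 13.3 and 11.6 CPM in PBS, at 15.9, 19.4, 10.9, 8.93 and 8.99 in mono-IL10 and at 45.0, 70.5, 25.7, 72.4 and 25.2 in IL10/2-Trikine. Its log2 difference against PBS was 1.91 ± 0.36 (edgeR adjusted p = 0.00227) and that of S100a9 1.85 ± 0.38. In immune cells of the same libraries S100a8 averaged 565, 392 and 408 CPM. The myeloid adaptors Tyrobp and Fcer1g were higher too, by 0.96 ± 0.25 and 1.16 ± 0.27, which makes 2 of 7 macrophage and monocyte markers, and 2 of 3 neutrophil markers were higher. Xist, the noncoding RNA of the inactive X chromosome, lay between 3372 and 3697 CPM in PBS, between 3048 and 3269 in mono-IL10 and between 5676 and 6349 in IL10/2-Trikine, a log2 difference of 0.81 ± 0.05 against PBS. It was also higher in the immune cells of that library, which averaged 1115 CPM against 804 in PBS. The nuclear receptor Nr4a2 had 0.79 ± 0.12, the neutrophil chemoattractant Cxcl2 0.74 ± 0.15, vitamin K epoxide reductase Vkorc1 0.76 ± 0.08, Pcyox1l 0.74 ± 0.11 and the mitochondrial serine carrier Sfxn3 0.72 ± 0.07, all higher in 5 of 5 mice than in every PBS mouse. The unnamed loci Gm35533 and Gm11808 had 1.10 ± 0.21 and 0.77 ± 0.06. In immune cells of the IL10/2-Trikine and PBS libraries Sfxn3 averaged 80.1 and 47.2 CPM, Gm11808 103 and 61.9 and Pcyox1l 9.13 and 5.05. Vkorc1 averaged 42.7 and 29.3 CPM there, Gm35533 0.843 and 0.171, Nr4a2 309 and 305 and, the other way, Cxcl2 4999 and 6999. Whether these differences belonged to the members or to the whole library was not tested.

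Far fewer genes passed for mono-IL10 against PBS. The label gene Sprr1a stood at 445, 830.2, 689.8, 433 and 632 CPM in PBS, at 1001, 908, 1106, 921 and 1033 in mono-IL10 and at 439, 592, 391, 439 and 523 in IL10/2-Trikine. All 5 mono-IL10 mice lay above all other mice. The log2 difference was 0.80 ± 0.15 against PBS (edgeR adjusted p = 0.00888), and IL10/2-Trikine was lower than mono-IL10 by -1.09 ± 0.15 (adjusted p = 0.000128). In thinned cells the share of members with Sprr1a was also highest in mono-IL10, at the 67.9% given above. Hes1, the Notch effector, stood at 223, 128, 89.5, 240.4 and 123 CPM in PBS, at 53.7, 67.9, 61.8, 90.4 and 67.2 in mono-IL10 and at 119, 87.1, 92.3, 86.4 and 84.5 in IL10/2-Trikine. It was lower in mono-IL10 by -1.15 ± 0.21 (edgeR adjusted p = 0.00884), and 4 of 5 mice lay below every PBS mouse. Against PBS, IL10/2-Trikine had -0.72 ± 0.22 for Hes1, with 3 of 5 mice below.

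Other named genes were higher with mono-IL10 as well. Cxcl2 had 0.81 ± 0.15 and the monocyte chemoattractant Ccl7 0.81 ± 0.14, the 2 called of 29 chemokines, cytokines and growth factors (0 lower, median 0.18). Immune cells held far more of both, with 6999 CPM of Cxcl2 and 577 CPM of Ccl7 in PBS, against 176 and 27.4 in the PBS members. Socs1, a feedback inhibitor of cytokine signaling, stood at 20.6, 26.3, 21.0, 23.4 and 21.4 CPM in PBS and at 43.7, 28.1, 26.8, 32.7 and 33.4 in mono-IL10, with 0.62 ± 0.11 and no overlap. It was the only called gene of 19 interferon-gamma induced genes, whose median was 0.43. Metallothionein Mt1 had 0.58 ± 0.08, Vkorc1 0.68 ± 0.08, Bmp2 0.55 ± 0.12, Klf2 0.54 ± 0.10 and Ifi205 0.54 ± 0.10. Lower genes included Csgalnact1 (-0.55 ± 0.10), the retinal reductase Dhrs3 (-0.44 ± 0.08), the immediate early gene Egr1 (-0.39 ± 0.08), the nuclear RNA Neat1 (-0.35 ± 0.07) and the ADP/ATP carrier Slc25a4 (-0.28 ± 0.05). Lysozyme Lyz2, a macrophage marker, was lower by -2.22 ± 0.28 at 3.98 against 19.7 CPM, while the sum of the macrophage markers overlapped between these groups.

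IL10/2-Trikine against mono-IL10 gave the largest number of calls, and 8.47% of genes were lower. Collagenase Mmp13 had -1.32 ± 0.27, the stress protein Nupr1 -0.94 ± 0.10, Sqstm1 -0.91 ± 0.10 and the miR-155 host transcript Mir155hg -0.83 ± 0.11. Of 29 chemokines, cytokines and growth factors, 11 were lower and 1 higher (median -0.22). The lower ones included Cxcl16 (-0.63 ± 0.07), Cxcl3 (-0.75 ± 0.13), Inhba (-0.78 ± 0.26), Ccl7 (-0.55 ± 0.15), Ccl2 (-0.53 ± 0.15) and Cxcl5 (-0.48 ± 0.12), and the higher one was Il1b (1.02 ± 0.30). Il1b averaged 53.4 CPM in the members of IL10/2-Trikine and 25.3 in those of mono-IL10, against 3654 and 5588 CPM in immune cells. Only 3 of 5 IL10/2-Trikine mice lay above every mono-IL10 mouse for Il1b. Inhba was not called with DESeq2 (adjusted p = 0.0709). In the members without immune UMIs the differences of Ccl7 (0.28), Ccl2 (0.07) and Cxcl5 (0.12) turned direction and were not called. Those of Cxcl16 (-0.17), Cxcl3 (-1.08) and Inhba (-1.15) stayed lower there. Of 18 NF-kB targets, 7 were lower and 0 higher (median -0.22), among them Ccl20 (-0.88 ± 0.27), Traf1 (-0.77 ± 0.10) and Nfkbia (-0.55 ± 0.09). Of 18 DNA replication genes, 4 were higher and 0 lower, Uhrf1 (0.58 ± 0.10), Ung (0.63 ± 0.18), Mcm5 (0.40 ± 0.11) and Rrm2 (0.38 ± 0.09), and of 20 mitosis genes only Ccnb1 (0.41 ± 0.13) was higher. Without immune UMIs Ung turned to -0.42 (edgeR adjusted p = 0.806). Of 17 ERK targets, 6 were higher and 5 lower. Of the 7 macrophage and monocyte markers tested, 5 were higher, among them Apoe (0.88 ± 0.16) and Lyz2 (1.38 ± 0.32).

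**Figure D5:**
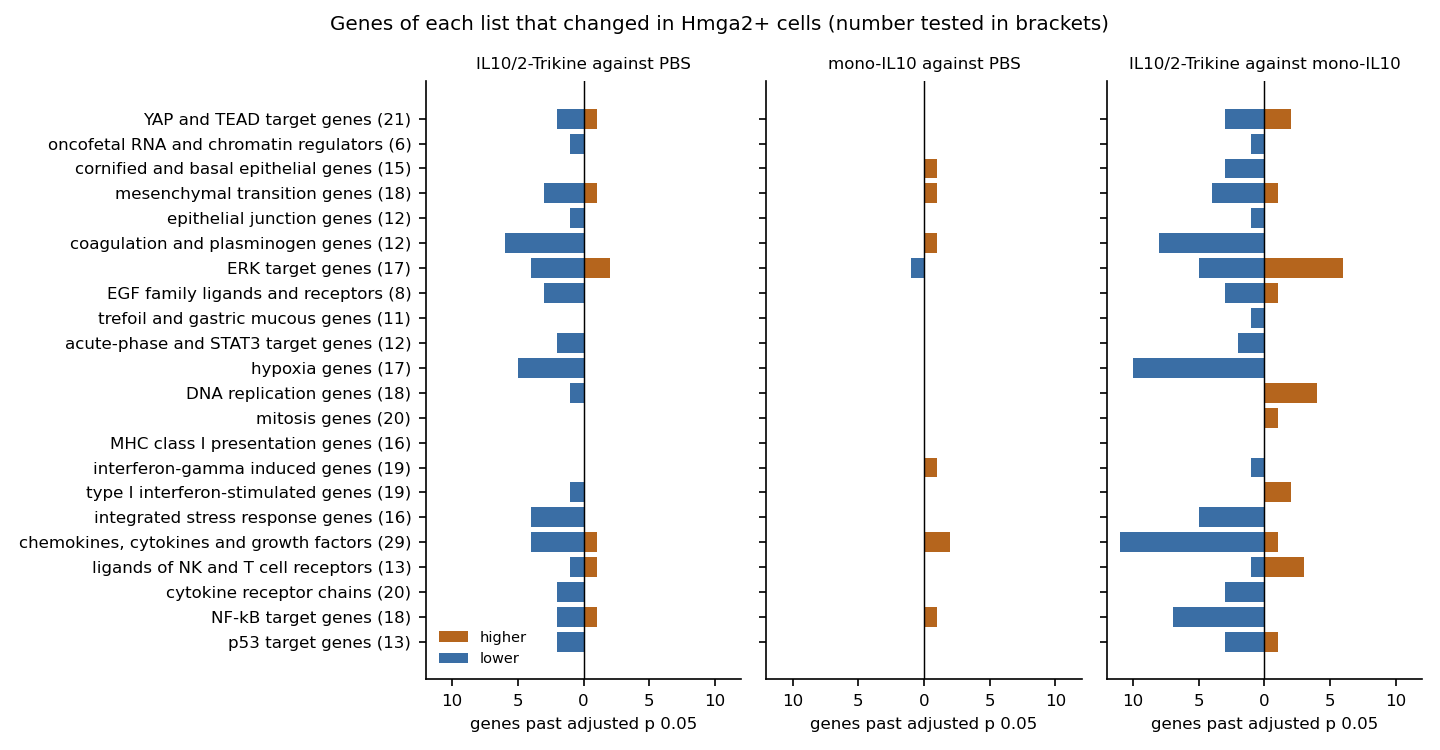
Number of genes of each list that were higher (right) or lower (left) at an adjusted p under 0.05 in the members, for the 3 treatment comparisons, with the number tested in brackets. The coagulation and hypoxia lists hold only lower genes for IL10/2-Trikine in both of its comparisons, and no MHC class I gene passed in any comparison.

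Genes by which immune cells see tumor cells, and the receptors of the cytokines given, were looked at by themselves. Of 16 MHC class I presentation genes, 0 passed the threshold in any of the 3 comparisons, with medians of 0.12, 0.19 and -0.08. H2-K1, a class I heavy chain, averaged 1749 ± 231, 1889 ± 377 and 1676 ± 142 CPM in the members of PBS, mono-IL10 and IL10/2-Trikine (SD, n = 5). B2m, its light chain, averaged 3870 ± 377, 4089 ± 568 and 3685 ± 219 CPM, and the groups overlapped. Of 19 interferon-gamma induced genes, 0 passed for IL10/2-Trikine against PBS although their median was 0.36. Of 13 ligands of NK and T cell receptors, Pvr was lower (-0.30 ± 0.09) and Cd47 higher (0.19 ± 0.04) against PBS. The IL-10 receptor alpha chain Il10ra averaged 0.369, 0.312 and 1.12 CPM in the members of PBS, mono-IL10 and IL10/2-Trikine, against 120.2, 117 and 99.1 CPM in immune cells. The IL-2 receptor beta chain Il2rb averaged 0.217, 0.121 and 0.545 CPM, against 100.5, 136 and 249 CPM. Il10rb, the shared second chain, averaged 12.9, 13.7 and 15.8 CPM. Il10ra and Il2rb were thus at or near 0 in the members.

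Of the 29 chemokines, cytokines and growth factors, 1 was higher and 4 lower for IL10/2-Trikine against PBS, the 4 being Cxcl16 (-0.45 ± 0.08), Cxcl3 (-0.44 ± 0.14), Csf1 (-0.40 ± 0.11) and Pdgfa (-0.29 ± 0.09), and of the 18 NF-kB targets 1 was higher and 2 lower. Against mono-IL10, 5 of the 16 integrated stress response genes were lower with IL10/2-Trikine, and of the 13 ligands of NK and T cell receptors 3 were higher (Ulbp1, Clec2d and the low Cd80) and Pvr was lower, with the calls of Ulbp1 (0.60, edgeR adjusted p = 0.129) and Clec2d (0.17, adjusted p = 0.639) lost at equal depth. The remaining lists had few calls. For IL10/2-Trikine against PBS, mono-IL10 against PBS and IL10/2-Trikine against mono-IL10 in turn, the YAP and TEAD targets (21 tested) had 1, 0 and 2 genes higher and 2, 0 and 3 lower. The cornified and basal genes (15 tested) had 0, 1 and 0 higher and 0, 0 and 3 lower, with Sprr1a in both counts. The type I interferon genes (19 tested) had 0, 0 and 2 higher and 1, 0 and 0 lower, the p53 targets (13 tested) 0, 0 and 1 higher and 2, 0 and 3 lower, and the cytokine receptor chains (20 tested) 0, 0 and 0 higher and 2, 0 and 3 lower. The trefoil and gastric genes (11 tested) had only Anxa10, lower by -0.55 ± 0.12 against mono-IL10, a call that was lost at equal depth (-0.37, edgeR adjusted p = 0.0859). The acute-phase genes (12 tested) had 2, 0 and 2 lower, the oncofetal regulators (6 tested) 1, 0 and 1 lower, and the junction genes (12 tested) 1, 0 and 1 lower.

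At equal depth per cell fewer genes passed, and many calls of named genes were lost. Thinning also chose the members again and left fewer cells and UMIs in the sum of each mouse. In PBS mouse 1, for example, there were 41 members after thinning and 127 as counted. The sums of the mice were not made equal, and the part of the smaller sums in the lost calls was not tested. Of 8760 genes tested with each cell thinned to 6010 UMIs, 357 passed for IL10/2-Trikine against PBS. For mono-IL10 against PBS 41 passed, and for IL10/2-Trikine against mono-IL10 599 passed. As counted, 12616 genes were tested. Of the 71 genes named by the rule for IL10/2-Trikine against PBS, 35 kept their call, 33 lost it, 1 reversed and 69 had a value. Of the 23 for mono-IL10 against PBS, 11 kept it and 12 lost it, and of the 117 for the comparison of both cytokines 65 kept it and 43 lost it. F3 had a log2 difference of -0.37 for IL10/2-Trikine against PBS (edgeR adjusted p = 0.0310) and Gdf15 -0.79. The calls of Areg (-0.30, adjusted p = 0.194), Atf3 (-0.25, adjusted p = 0.213), Krt19 (-0.25, adjusted p = 0.0853) and Hes1 (-0.54, adjusted p = 0.0908) were lost. Other lost calls had a log2 difference at least as large as before, namely Anxa2 (-0.21 before and -0.21 thinned), Atf5 (-0.34 and -0.38), Cd47 (0.19 and 0.19), Csf1 (-0.40 and -0.45), Cxcl3 (-0.44 and -0.63), Plat (-0.22 and -0.25) and Spry4 (0.34 and 0.59). Those with a smaller one were Cdh2 (0.36 and 0.30), Cldn4 (-1.33 and -1.18), Ddit4 (-0.54 and -0.45), Dusp5 (-0.25 and -0.20), Egfr (-0.28 and -0.24), Fcer1g (1.16 and 1.07), Fosl1 (-0.38 and -0.24), Krt7 (-0.44 and -0.27), Krt8 (-0.28 and -0.17), Pdgfa (-0.29 and -0.19), Pfkfb3 (-0.58 and -0.47), Phlda1 (-0.34 and -0.13), Pvr (-0.30 and -0.22) and Tppp3 (-0.69 and -0.64). For mono-IL10 against PBS, Hes1 had -1.23, and the calls of Cxcl2 (0.62, adjusted p = 0.141), Ccl7 (0.92, adjusted p = 0.0878) and Socs1 (0.50, adjusted p = 0.491) were lost, with those of Bmp2 (0.55 before and 0.41 thinned), Klf2 (0.54 and 0.28), Dhrs3 (-0.44 and -0.70), Neat1 (-0.35 and -0.36) and Vkorc1 (0.68 and 0.68). For the comparison of both cytokines the calls of Ccl20 (-0.46, adjusted p = 0.461), Lyz2 (0.34, adjusted p = 0.690), Il1b (0.58, adjusted p = 0.334), Mcm5 (0.34, adjusted p = 0.252), Ccnb1 (0.39, adjusted p = 0.135) and Cxcl3 (-0.57, adjusted p = 0.0742) were lost. Sprr1a kept its call, with 0.82 for mono-IL10 against PBS.

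Members with 0 UMIs of C1qa, C1qb, C1qc, Tyrobp, Fcer1g, Cd74 and Lyz2 were 7.75%, 8.96% and 18.7% of the members. They left 2 PBS, 3 mono-IL10 and 4 IL10/2-Trikine mice. Of 10500 genes tested in these members, 21, 1 and 50 passed in the 3 comparisons. Whether the Cd74 UMIs of members came from the members or from other cells was not tested. Sprr1a was the gene called for mono-IL10 against PBS, with 1.59 (edgeR adjusted p = 0.000108), and it had -1.28 for IL10/2-Trikine against mono-IL10. Xist had 0.72 for IL10/2-Trikine against PBS and Hmox1 -1.01 against mono-IL10, both called. For IL10/2-Trikine against PBS, Hmox1 was not called (-0.55, edgeR adjusted p = 0.573). F3 (-0.46, adjusted p = 0.630), Hilpda (-0.61, adjusted p = 0.292), Sqstm1 (-0.44, adjusted p = 0.333) and Sat1 (-0.28, adjusted p = 0.573) were not called against PBS either. Of the named genes, 7 of 71, 1 of 23 and 19 of 117 kept their call in the 3 comparisons. The differences of Cxcl2 against PBS turned to -0.35 for IL10/2-Trikine and -0.47 for mono-IL10, that of Gdf15 for IL10/2-Trikine against PBS turned to 0.22 and that of S100a9 was 0.37, and none of these 4 was called.

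A last comparison asked whether the treatments acted differently on the members than on Hmga2-negative tumor cells of the same mice, by the treatment by cell group term of an edgeR fit with the mouse as a block. None of 12136 genes passed an adjusted p of 0.05 for IL10/2-Trikine against PBS (424 at an unadjusted p under 0.05, lowest adjusted p = 1) or for mono-IL10 against PBS (633, lowest adjusted p = 0.641). The treatment differences above were therefore not shown to be particular to the Hmga2+ cells. Among the genes with the lowest p, the IL-1 beta gene Il1b had a difference of effects of 1.69 ± 0.47 (SE) for IL10/2-Trikine against PBS and the Wnt ligand gene Wnt7b -0.71 ± 0.19, both with an edgeR adjusted p of 1. For mono-IL10 against PBS, Inhba had 1.52 ± 0.36 and Prl2c2 2.15 ± 0.53, both with an adjusted p of 0.685. Without the filter on low counts, 43 and 58 of 25140 genes passed.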

How the data were processed

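The authors deposited UMI counts per gene and barcode for 3 libraries (PBS, mono-IL10 and IL10/2-Trikine), made with Cell Ranger 9.0.1 on GRCm39 and not normalized; the hashtag counts stand in the same files. Per the labels, Seurat 5.1.0 and DESeq2 1.46.0 were among the tools of the study, and its table of annotated cells covers T and NK cells and was not used here. Members were gated by the counts given in the report, without a doublet caller. Counts were summed per mouse, genes were filtered with filterByExpr, scaled by TMM and tested with edgeR 4.0.16 (glmQLFit and glmQLFTest, R 4.3.3) with Benjamini-Hochberg adjustment at 0.05. The interaction fit had the mouse as a block and needed at least 20 cells of both kinds per mouse. Ratios beside other tumor cells were log2 of CPM with 5 added to each value, per mouse. Exact permutation tests (two-sided) of the shares used Python 3.11.15 (scipy 1.17.1). Thinning went to the 10th percentile of the UMI totals of all tumor cells. Alternatives were DESeq2 1.42.0 with its size factors, RLE factors, no filter on low counts, other gates, thinning, members without immune UMIs, fits of the groups compared only and leaving out each mouse. The edgeR fit was also run on simulated counts with known changes, and that outcome is not reported here. Named genes were up to 10 higher and 10 lower per comparison by fitted change among called genes with a mean of at least 20 CPM, the same by ratio beside other tumor cells, the gate and label genes, the called and most abundant members of the lists, and the 10 lowest p of the interaction; Muc1, Igf2bp2, Ccn1, and Tff2 beside cells without Tff1 were chosen after their values were seen. A few genes that this rule names are not reported here. The members, markers and gene lists were chosen with earlier results of these data known.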

Additional observations from a re-analysis of the deposited data

Results flagged for a closer look

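Of 60 groups of 5 mice tested for a single distant mouse, 4 were set apart by a gap to the nearest other mouse above 0.71 of the whole range of the group, and chance alone flags about 1 in 20 groups. In IL10/2-Trikine, mouse 1 stood apart for Gdf15, at 251 CPM in the members (gap 0.766 of the range), for Hes1, at 119 CPM (0.774), and for Xist, at 6349 CPM (0.780). In PBS, mouse 1 stood apart for Xist, at 3697 CPM (0.764). The Xist values of both groups stayed on their own side of the other group.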

How the results depend on the processing

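The 3 libraries differ in depth and each treatment has 1 library. No paired analysis was possible because the hashtag numbers only name mice within a library. Thinning for the counts of genes was chosen after seeing the data. For the share of members, thinning gave -3.31, 2.60 and -5.91 points in the order IL10/2-Trikine against PBS, mono-IL10 against PBS and IL10/2-Trikine against mono-IL10. The share in mono-IL10 lost its call against PBS (adjusted p = 0.0556, exact permutation test) with Hmga2 at 3 or more UMIs (13.2), the hashtag at 90% (14.3) and tumor cells without Tff1 as denominator (12.4). Leaving out 1 mouse gave 9.51 points (without PBS mouse 1) to 15.5 (without PBS mouse 3), and ended the call without PBS mouse 1, 2 or 4 or mono-IL10 mouse 1, 3 or 5 (adjusted p up to 0.0794). It gave -25.7 to -19.7 and -36.9 to -33.2 points for IL10/2-Trikine against PBS and mono-IL10.

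Genes called in the 3 comparisons numbered 1414, 130 and 2087 of 12616, and with DESeq2 1547, 304 and 2118. Thinned they numbered 357, 41 and 599 of 8760, and without immune UMIs 21, 1 and 50 of 10500. With the hashtag at 90% they numbered 0, 0 and 2 of 11945 (965, 521 and 1020 at an unadjusted p under 0.05 in edgeR). That last gate left 2 PBS, 4 mono-IL10 and 2 IL10/2-Trikine mice. Without the filter on low counts, 525 genes were higher and 671 lower for IL10/2-Trikine against PBS and 650 and 1177 against mono-IL10, against 764 and 650 and 1018 and 1069 with it. The fit without the filter tested 24814 genes. Leaving out 1 mouse gave 1011 to 1343, 79 to 156 and 1446 to 2061 calls. For mono-IL10 against PBS the count was 79 without PBS mouse 3, 82 without PBS mouse 4 and 86 without mono-IL10 mouse 1. The interaction had 0 genes, 43 and 58 without the filter and 1 and 0 thinned, and leaving out 1 mouse gave 0 to 2 (without PBS mouse 4) and 0 to 1 (without PBS mouse 2). Genes set apart beside Hmga2-negative cells numbered 65, 153 without immune UMIs, and 64 to 71 when 1 mouse was left out. The 153 came from 4 mice and held 42 of the 65, and Igfbp3 (0.51), Tnfaip6 (0.18) and Sprr1a (-0.68) then had lower ratios. No named gene reversed when 1 mouse was left out.

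Named genes reversed, the cause not tested, in these cases. For IL10/2-Trikine against PBS without immune UMIs these were Oasl1 (0.0873), Cxcl2 (-0.35), Plat (0.0400), Gdf15 (0.22), Lats2 (-0.10) and Spry4 (-0.0905), with the hashtag at 90% Atf5 (0.0703) and thinned Bbc3 (0.0787). For mono-IL10 against PBS without immune UMIs these were Cxcl2 (-0.47) and Fkbp11 (0.00847). For IL10/2-Trikine against mono-IL10 without immune UMIs these were Nuak2 (-0.0498), Vcam1 (0.00279), Ung (-0.42), Cxcl5 (0.12), Ppp1r15a (0.0231), Phlda1 (0.0825), Ccl2 (0.0712), Ccl7 (0.28), Sparc (0.0673), Krt7 (0.35) and Zeb1 (0.0331), with the hashtag at 90% Oas2 (-0.32) and thinned Bbc3 (0.12).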
